A study of Homo sapiens with 8 samples.

Results

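Matrix metalloproteinase (MMP) genes were followed in peak lists from ATAC-seq, which finds open chromatin with a transposase. The 8 genes were MMP1, MMP2, MMP3, MMP9, MMP10, MMP11, MMP13 and MMP14, chosen by name from 20136 protein-coding genes. Each gene was taken with its annotated body and 50 kb on each side on the human build hg19 (GRCh37). The 8 windows held 319 of the 466883 peaks called in all lists. When overlapping peaks of the lists were merged and regions found in at least 2 libraries were kept, 50 of 75501 sites lay in the windows. The cells were LX-2, an established line of human hepatic stellate cells labelled wild type, with no gene altered in any group. They were grown on fibronectin-coated polyacrylamide hydrogels of about 2 kPa (soft) or about 40 kPa (stiff) for 2 days (D2) or 4 days (D4). Each combination of gel and day had 2 libraries, and the groups are called D2 soft, D4 soft, D2 stiff and D4 stiff. One immortalised line on plain gels is a limited model, since the other cells of the liver were absent. The question was where chromatin at the MMP genes was open and whether this differed with stiffness or time.

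MMPs are zinc-dependent enzymes that cut proteins of the extracellular matrix. Most are secreted as inactive proenzymes, become active when the propeptide is cut off, and are held in check by the tissue inhibitors of metalloproteinases (TIMPs). Activated stellate cells both lay down and remodel the collagen matrix of a fibrotic liver, and MMPs and TIMPs set its turnover. ATAC-seq shows where a transposase can reach the DNA, so a peak marks open chromatin at a promoter or at a distal element and says nothing by itself about expression.

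The lists were of unequal length, with 29789 peaks in D2 soft replicate 1 and 55754 to 72840 in the other 7 libraries. D2 soft replicate 1 also stood apart in depth, with a median of 10 fragments stacked at a peak summit against 13 to 22 elsewhere. The smallest pileup called was 3 fragments in that library and 4 or 5 in the others, so a weak peak missing from D2 soft replicate 1 was not detectable at its depth, which does not show that the site was closed. A peak's strength is therefore given as its percentile within its own list by −log10 p, where 100 is the strongest peak, or as its fold enrichment over the local background of the same library. Promoter peaks at stellate and myofibroblast markers were found in every library for 6 of 10 genes, including ACTA2, COL1A1 and PDGFRB. This held for 0 of 5 hepatocyte markers, for 0 of the 4 endothelial markers found in the annotation, for 2 of 5 leucocyte markers (CD68 and CD14) and for 1 of 5 cholangiocyte markers (KRT7). DES had no promoter peak in any library and LRAT had one in 1 library.

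The sequences below show the regions on which the results turn. RefSeq promoters on build GRCh38.p14, from 250 bases before to 50 after the start, were found for 3 of the 8 genes (MMP10, MMP11 and MMP14) and not for MMP1, MMP2, MMP3, MMP9 and MMP13. They are written 5′ to 3′ along the gene. Capitals mark exact matches, on either strand, to AP-1 (TGAGTCA or TGACTCA), TEAD (GGAATG), PEA3/ETS (AGGAAG), the GC box (GGGCGG) and the TATA box (TATAAA), where overlapping matches run together. The 3 promoters contrast a TATA box, a GC-rich start and a single GC box. The MMP10 promoter is from chr11:102780579-102780878, minus strand, the MMP14 promoter from chr14:22836335-22836634, plus strand, and the MMP11 promoter from chr22:23772599-23772898, plus strand.
MMP10 promoter: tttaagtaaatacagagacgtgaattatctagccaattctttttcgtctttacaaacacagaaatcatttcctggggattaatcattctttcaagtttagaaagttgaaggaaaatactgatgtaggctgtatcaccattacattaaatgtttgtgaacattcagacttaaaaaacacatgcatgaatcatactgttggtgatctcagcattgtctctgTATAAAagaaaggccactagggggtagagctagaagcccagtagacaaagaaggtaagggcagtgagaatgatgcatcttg
MMP14 promoter: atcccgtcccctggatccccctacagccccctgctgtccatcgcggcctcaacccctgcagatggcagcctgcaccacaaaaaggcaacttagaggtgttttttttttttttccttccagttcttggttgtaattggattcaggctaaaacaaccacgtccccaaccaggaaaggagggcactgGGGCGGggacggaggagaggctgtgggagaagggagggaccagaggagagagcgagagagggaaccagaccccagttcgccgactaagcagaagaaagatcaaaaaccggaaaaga
MMP11 promoter: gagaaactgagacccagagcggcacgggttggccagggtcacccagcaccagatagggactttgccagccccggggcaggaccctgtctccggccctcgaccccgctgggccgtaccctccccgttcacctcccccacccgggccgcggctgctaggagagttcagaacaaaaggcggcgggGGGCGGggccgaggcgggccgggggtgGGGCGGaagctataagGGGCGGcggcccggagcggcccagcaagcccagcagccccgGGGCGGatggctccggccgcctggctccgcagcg
An exact match placed these 3 promoters once each on GRCh37, at chr11:102651310-102651609, chr14:23305544-23305843 and chr22:24114786-24115085. TATAAA began 31 bases before the MMP10 start (position -31), and GGGCGG began 66 bases before that of MMP14 (position -66). MMP11 held 4 GC boxes, which began at positions -68, -41, -25 and 16. Among 27305 promoters of this length, TATAAA occurred in 12.0%, GGGCGG in 44.6% and the AP-1 heptamer in 4.92%. None of the 3 member promoters held the AP-1, TEAD or PEA3/ETS letters, which says only that these letters were not in this window.

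Away from the promoters, 6 sites are shown, each as 200 bases of the plus strand of GRCh37 around the summit of its best-ranked peak. The first is the site found in all stiff and no soft libraries, and the others are the strongest distal sites of 5 genes. Their positions, in the order printed, are chr11:102598781-102598980, chr11:102722114-102722313, chr11:102867054-102867253, chr16:55533988-55534187, chr20:44622204-44622403 and chr14:23320625-23320824.
Stiff-only site in the MMP10 window, near MMP8: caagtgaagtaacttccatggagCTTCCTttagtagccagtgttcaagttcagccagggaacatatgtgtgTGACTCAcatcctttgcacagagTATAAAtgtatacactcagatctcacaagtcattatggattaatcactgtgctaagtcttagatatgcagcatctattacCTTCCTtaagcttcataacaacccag
MMP3 upstream: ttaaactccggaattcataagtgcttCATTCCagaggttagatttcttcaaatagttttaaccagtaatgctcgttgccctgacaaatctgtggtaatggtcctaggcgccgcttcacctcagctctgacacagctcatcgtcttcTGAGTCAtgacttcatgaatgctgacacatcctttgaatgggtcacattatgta
MMP13 upstream: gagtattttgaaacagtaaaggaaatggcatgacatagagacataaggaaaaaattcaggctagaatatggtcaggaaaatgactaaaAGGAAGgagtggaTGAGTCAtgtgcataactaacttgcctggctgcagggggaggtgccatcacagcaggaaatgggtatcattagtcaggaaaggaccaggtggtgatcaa
MMP2 intron: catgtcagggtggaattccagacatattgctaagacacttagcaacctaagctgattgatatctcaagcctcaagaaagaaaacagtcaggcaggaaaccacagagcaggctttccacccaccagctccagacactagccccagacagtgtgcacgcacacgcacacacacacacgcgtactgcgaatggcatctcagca
MMP9 upstream: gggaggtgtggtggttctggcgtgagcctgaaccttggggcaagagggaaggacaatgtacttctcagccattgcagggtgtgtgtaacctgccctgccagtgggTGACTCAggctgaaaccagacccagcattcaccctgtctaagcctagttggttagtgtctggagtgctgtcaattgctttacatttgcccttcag
MMP14 downstream: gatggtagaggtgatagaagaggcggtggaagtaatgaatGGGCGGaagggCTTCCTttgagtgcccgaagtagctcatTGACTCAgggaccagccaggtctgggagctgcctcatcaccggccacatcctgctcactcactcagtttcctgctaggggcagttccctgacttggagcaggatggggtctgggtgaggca
Each of these except the MMP2 intron held 1 AP-1 heptamer. It began 1 base after the summit at MMP13 and 5 bases after it at MMP9. At the MMP14 downstream site it began 21 bases before the summit (offset -21) and at the stiff-only site 29 bases before it (offset -29). Some promoter sites of members also held the heptamer within 100 bases of the summit. It began at offset -2 at MMP1, -43 at MMP3, 44 at MMP9 and 36 at the internal MMP11 starts. The promoter sites of MMP10, MMP14 and MMP2 and the MMP11 site found in every library held none. Over all member sites, 18 of 50 (36%) held an AP-1 heptamer within 100 bases of the summit, against 30.2% of all 75501 sites. TEAD letters were in 12% of member sites and 19.0% of all sites, PEA3/ETS letters in 34% and 29.5%, GC boxes in 26% and 16.1%, and TATAAA in 8% and 9.04%. The median GC content of these windows was 50.5% at member sites and 48.5% at all sites.

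MMP promoters were open to very different extents. A peak within 1 kb of an annotated start was present in all 8 libraries for MMP3, MMP9, MMP11 and MMP14, in 7 for MMP10, in 4 for MMP1, in 3 for MMP2 and in none for MMP13. Thus 4 of 8 members (50%) had a promoter peak in every library, as did 47.6% of all protein-coding genes, and 1 of 8 (12.5%) had none, as did 26.7% of all genes. For MMP11 these peaks lay at other annotated starts, with 0 libraries at its main start. In lists cut to equal length 0 of 8 members kept a promoter peak in every library, against 35.0% of all genes, and the pairs of member gene and library with a promoter peak went from 46 to 25. No member promoter had a peak in every library of one stiffness and in no library of the other.

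MMP1 encodes interstitial collagenase, which cuts fibrillar collagen. Its promoter site (chr11:102668816-102669112, 297 bp, at the start of the gene) was in D2 soft replicate 2, in both D2 stiff libraries and in D4 soft replicate 2. Its percentile was 69.5 in D2 soft replicate 2, 58.7 and 53.1 for D2 stiff, and 75.4 in D4 soft replicate 2. The fold enrichment there was between 7.01 and 8.42, with 18 to 28 fragments at the summit. By −log10 p it was above the middle of each list that held it, yet the replicates of both soft groups disagreed. By fold enrichment its percentile was 39.4 in D2 stiff replicate 2. On the stiff matrix it was present on D2 and absent on D4, a pattern of 30 of 20136 coding promoters (0.149%), and 1 other coding gene had the same presence in all 8 libraries. The lists give no value for a library without a peak, so how far below the calling threshold the site lay in the other 4 could not be seen. A neighbouring site 1459 bp upstream (chr11:102670350-102670962) was in every library, at percentiles from 21.0 to 47.7, so within 2 kb of the start MMP1 had a peak in 8 of 8.

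MMP13 encodes collagenase 3, and 0 of 8 libraries had a peak at either of its annotated starts. Its window, from chr11:102763724 to chr11:102876461, held 5 distal sites, of which 2 were in every library. The farther of these lay 40257 bp upstream (chr11:102866718-102867670). Its percentile was 26.2 and 71.7 for D2 soft, 89.1 and 78.7 for D2 stiff, 81.5 and 77.5 for D4 soft, and 76.3 and 85.0 for D4 stiff. D2 soft replicate 1 was low and the other 7 libraries were in the upper part of their lists. The nearer lay 18808 bp upstream (chr11:102845269-102846155), with percentiles of 2.02 and 64.4 for D2 soft, 71.8 and 69.5 for D2 stiff, 69.4 and 38.1 for D4 soft, and 73.6 and 74.1 for D4 stiff. There D2 soft replicate 1 rested on a summit pileup of 3 fragments against 11 to 29 in the others.

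The stromelysins MMP3 and MMP10 cut a broad set of matrix proteins and activate other proenzymes. The MMP10 promoter site (chr11:102651231-102651612, at its only annotated start) had the highest mean percentile of the promoter sites. Its percentile was 56.6 in D2 soft replicate 2, 78.8 and 77.8 for D2 stiff, 91.9 and 85.2 for D4 soft, and 70.5 and 90.3 for D4 stiff. It had no peak in D2 soft replicate 1. On D4 both soft libraries lay within or above the range of the stiff libraries, so the stiffness groups overlapped. The MMP3 promoter site (chr11:102713882-102714662) had percentiles of 33.6 and 40.2 for D2 soft, 73.6 and 39.1 for D2 stiff, 60.3 and 43.0 for D4 soft, and 47.7 and 38.5 for D4 stiff. The 2 D2 stiff libraries lay 1 above and 1 within the soft values.

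MMP11 (stromelysin 3), which is activated inside the cell by furin, had its promoter peaks away from its main start. No library had a peak within 1 kb of the main start at chr22:24115036, the start of the RefSeq promoter printed above with 4 GC boxes. The site found in every library (chr22:24109947-24110744) lay 4292 bp upstream, at a farther start of MMP11 that it shares with CHCHD10, so the gene it serves cannot be told apart. Its percentile was 48.9 and 54.3 for D2 soft, 83.8 and 10.1 for D2 stiff, 41.7 and 51.3 for D4 soft, and 63.2 and 57.8 for D4 stiff. The D2 stiff replicates were the highest and the lowest of the 8 values. A further site at internal starts of MMP11 (chr22:24123619-24124178) was in 4 libraries, at percentiles from 9.65 to 44.3.

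The gelatinases MMP2 and MMP9 cut denatured collagen and the type IV collagen of basement membranes. MMP9 had a promoter site in every library (chr20:44636620-44637702), with percentiles of 27.5 and 67.2 for D2 soft, 46.4 and 51.6 for D2 stiff, 62.6 and 73.1 for D4 soft, and 69.2 and 44.6 for D4 stiff. Soft and stiff values overlapped. Within 500 bp of the start MMP9 had a peak in 7 libraries, with none in D2 soft replicate 1. MMP2 had a weak site at its main start (chr16:55513054-55513490), found in D2 stiff replicate 2 at percentile 8.75, in D4 soft replicate 2 at 25.2 and in D4 stiff replicate 2 at 23.3. It was never in both replicates of a group, with 6 to 10 fragments at the summit. 5 other coding genes had the same presence across the libraries. A second site at other MMP2 starts, 1033 bp downstream (chr16:55514143-55514534), was in D4 soft replicate 2 at percentile 9.89 and in D4 stiff replicate 2 at 7.31.

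MMP14 is a membrane-anchored enzyme that cuts collagen at the cell surface and activates the MMP2 proenzyme. Its promoter site (chr14:23305510-23307166, 1657 bp) covered the whole RefSeq promoter printed above. The fold enrichment was 6.76 and 6.98 for D2 soft, 6.54 and 7.31 for D2 stiff, 4.87 and 4.99 for D4 soft, and 7.17 and 9.21 for D4 stiff. The matching percentiles by −log10 p were 55.6 and 45.0 for D2 soft, 42.5 and 52.0 for D2 stiff, 24.5 and 31.8 for D4 soft, and 54.5 and 67.5 for D4 stiff. On D4 both stiff libraries lay above both soft ones, and on D2 the percentiles overlapped.

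**Figure D1:**
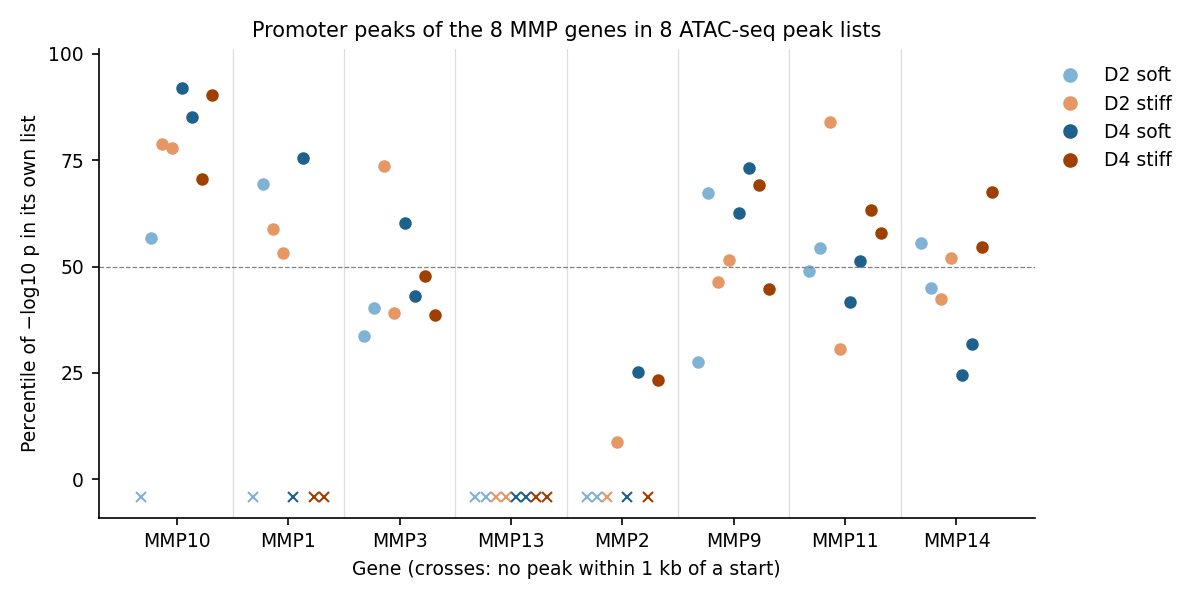
Percentile of each promoter peak by −log10 p within its own list (y axis, 100 is the strongest) for the 8 genes (x axis), with 1 point per library coloured by group and the best peak within 1 kb of any start of the gene. Crosses mark libraries with no such peak: 8 for MMP13, 5 for MMP2, 4 for MMP1 and 1 for MMP10.

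MMP1, MMP3, MMP10 and MMP13 lie in one cluster on chromosome 11, all on the minus strand, and their windows are not independent. The joined windows ran over 285 kb from chr11:102591233 to chr11:102876461. They held 18 different sites, which count as 30 when the 4 windows are added up. MMP10 and MMP1 shared 91.2 kb and 7 sites, MMP1 and MMP3 shared 62.4 kb and 5 sites, and MMP10 and MMP3 shared 44.8 kb and 4 sites. MMP13 shared 0 sites with the others. The promoters of MMP10 and MMP3 therefore also count as distal sites of MMP1. Of the 18 sites, 7 were in every library. An intronic site of the pseudogene WTAPP1, 16675 bp downstream of the MMP10 start (chr11:102632960-102634684), was, of the sites found in every library and distal to both MMP1 and MMP10, the one with the best mean percentile, with percentiles from 34.1 to 80.2. The best distal site of MMP3 was 7319 bp upstream (chr11:102721659-102722442), with percentiles of 72.1 and 68.8 for D2 soft, 94.0 and 80.4 for D2 stiff, 87.6 and 61.2 for D4 soft, and 78.8 and 90.5 for D4 stiff. It ranked above the MMP3 promoter site in each of the 8 libraries.

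**Figure D2:**
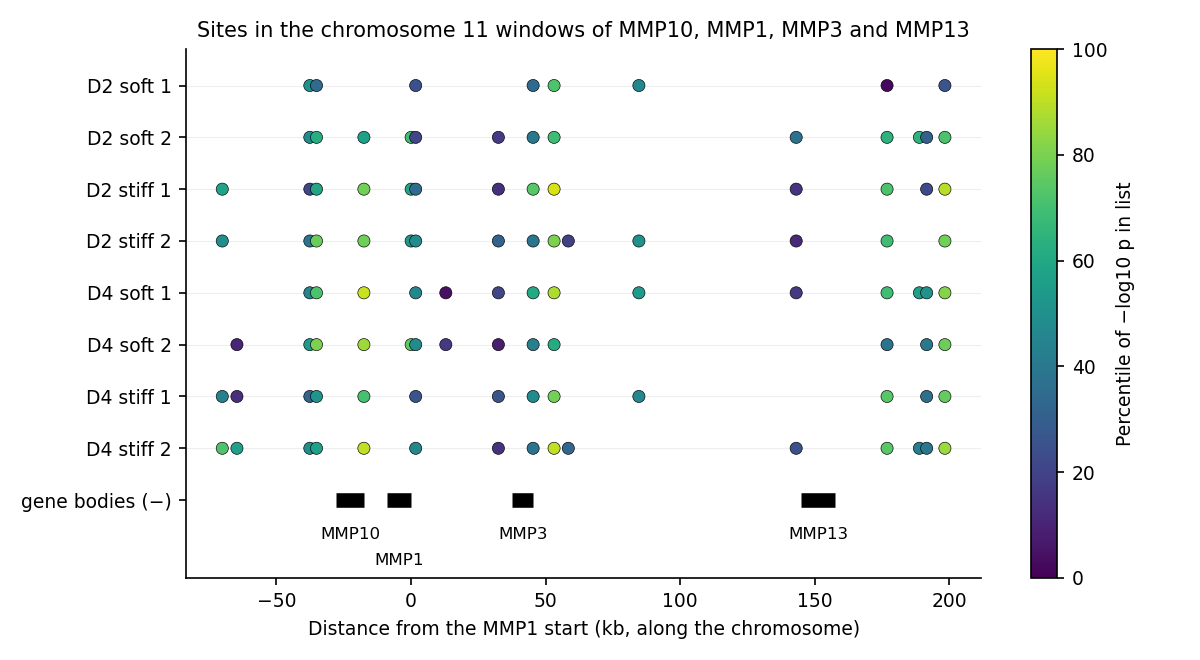
Sites of the chromosome 11 cluster by distance from the MMP1 start (x axis, kb along the chromosome) in the 8 libraries (rows). A point is a site with a peak in that library, its colour the percentile by −log10 p in that list, and black bars are the 4 gene bodies. The column of points at the far left is the site found in the 4 stiff libraries and no soft library, and the gene body of MMP13 has no points at its start.

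Outside the cluster, the strongest sites of MMP2, MMP9 and MMP14 were distal. Those of MMP2 and MMP14 were near the top of every list. The MMP14 site lay 14472 bp downstream of the main start and beyond the gene (chr14:23320266-23320989), within 1 kb of an annotated Y_RNA start. Its percentile was 95.7 and 98.0 for D2 soft, 93.2 and 97.4 for D2 stiff, 97.1 and 95.9 for D4 soft, and 98.3 and 96.9 for D4 stiff, with up to 110 fragments at the summit. The MMP2 site lay in an intron, 20534 bp downstream of the main start (chr16:55533644-55534728). Its percentile was 90.1 and 89.5 for D2 soft, 89.3 and 85.7 for D2 stiff, 96.7 and 97.9 for D4 soft, and 95.8 and 96.0 for D4 stiff. By −log10 p the 4 D4 values were above the 4 D2 values, and the share of all sites with this pattern is not given here. By fold enrichment percentile the days overlapped. D2 soft replicate 1 was at 91.8, D4 soft replicate 1 at 91.5 and D4 stiff replicate 2 at 90.8. The test on fold enrichment ranks, D4 against D2, did not pass on either matrix (limma unadjusted p = 0.532 on soft and 0.263 on stiff gels). MMP2 thus had a strong site in its body in all 8 libraries and a weak promoter site in 3. The MMP9 site lay 14911 bp upstream (chr20:44622076-44622636), with percentiles of 57.5 and 88.3 for D2 soft, 92.8 and 94.2 for D2 stiff, 94.4 and 98.0 for D4 soft, and 74.3 and 95.6 for D4 stiff. The best distal site of MMP11 was 21264 bp upstream, at the promoter of ZNF70 (chr22:24092911-24093772). It was in 7 libraries, all but D2 soft replicate 1, at percentiles from 29.5 to 72.9.

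**Figure D3:**
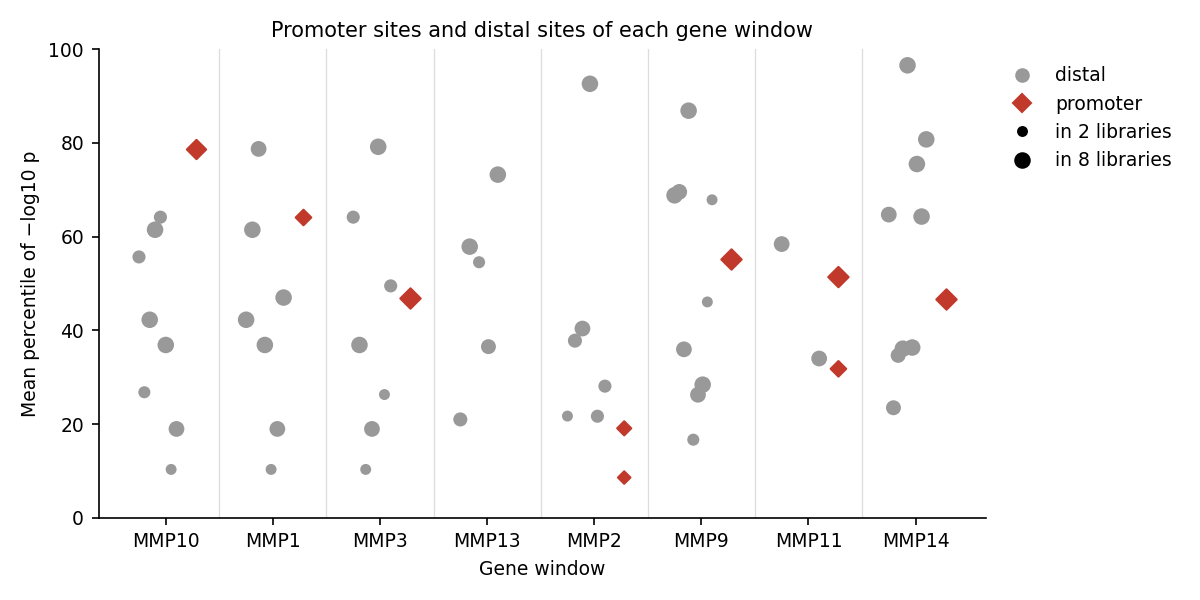
Mean percentile by −log10 p over the libraries that hold a site (y axis) for the sites of each gene window (x axis). Red diamonds are sites within 1 kb of a start of that gene and grey points all other sites of its window, with point size rising with the number of libraries. The highest distal point of MMP14 (96.6), MMP2 (92.6), MMP9 (86.9) and MMP3 (79.2) lies above that gene's promoter points, and for MMP10 the promoter (78.7) is the highest point.

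Of the 50 sites, 20 (40%) were in all 8 libraries, against 32.1% of all sites. They fell within 1 kb of a start of any gene in 21 cases, in introns in 13, between genes in 13 and in exons in 3. MMP14 had 7 of its 10 sites in every library and MMP2 had 1 of 8. Group-only sites had a peak in both replicates of one group and in neither of the other, a comparison of 2 against 2 libraries given without a p, since an exact permutation test of that size cannot go below 0.333. On D2, 3 of the 50 member sites (6%) were stiff-only, beside 7.45% of all sites, and 0 were soft-only, beside 0.391%. On D4, 3 (6%) were stiff-only, beside 6.72%, and 1 (2%) was soft-only, beside 1.31%. On the soft matrix 2 sites (4%) were in D4 only, beside 5.79%, and 0 were in D2 only, beside 0.403%. On the stiff matrix 2 (4%) were in D4 only, beside 5.35%, and 3 (6%) were in D2 only, beside 1.41%. Except for that last count, the shares were close to the background or rested on 0 or 1 site.

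The D2-only sites on the stiff matrix were the MMP1 promoter site, a site in an LPCAT2 intron of the MMP2 window (chr16:55576545-55577624) and a site in an SLC12A5 intron of the MMP9 window (chr20:44680553-44681000). The last had percentiles of 68.2 and 67.5 for D2 stiff and no peak elsewhere, so it was also stiff-only on D2. The remaining D2 stiff-only site lay in another part of LPCAT2 (chr16:55586520-55586973, intron), at percentiles of 39.6 and 17.5 for D2 stiff, and was also in D4 soft replicate 1 at 19.0 and in D4 stiff replicate 2 at 36.2. Without D4 stiff replicate 2 the D2-only count on the stiff matrix was 5 of 50, beside 4.32% of all sites. At 25 kb on each side it was 1 of 36, beside 1.41%.

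One member site was in all 4 stiff libraries and in no soft library, as were 0.85% of all sites, and 0 had the opposite pattern, as did 0.0172%. The site (chr11:102598564-102599091, 528 bp) lay in the MMP10 window, 52268 bp downstream of the MMP10 start and 783 bp from an annotated start of MMP8, which encodes neutrophil collagenase. Its percentile was 57.8 and 49.1 for D2 stiff and 43.6 and 72.2 for D4 stiff, with fold enrichment from 7.36 to 11.3 and 14 to 26 fragments at the summit. These were ordinary peaks near the middle of the stiff lists, and their summits lay within 4 bp of each other. In lists cut to equal length the site did not keep this pattern, and at 25 kb on each side of the genes it lay outside the windows. The other D4 stiff-only sites were chr16:55404854-55405223, upstream of MMP2, at percentiles of 11.9 and 31.5, and the internal MMP11 start site, at 42.7 and 44.3. The D4 soft-only site (chr11:102681612-102682078, in WTAPP1) was weak in both libraries, at percentiles of 4.16 and 16.5, and was also in D4 only on the soft matrix. The other such site lay 3491 bp upstream of MMP9 (chr20:44633716-44634056), at 7.66 and 2.71 for D4 soft, and was also in D4 stiff replicate 2 at 39.7. The D4-only sites on the stiff matrix were the site upstream of MMP2 and an intergenic site of the MMP10 window (chr11:102604092-102604445), at 13.5 and 56.6 for D4 stiff and also in D4 soft replicate 2 at 10.3.

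The number of peaks in a gene's window was compared between the 4 stiff and the 4 soft libraries by an exact two-sided permutation test over 70 arrangements, where the smallest possible p is 0.0286. For MMP14 the libraries held 8 and 10 peaks for D2 soft, 11 and 12 for D2 stiff, 10 and 9 for D4 soft, and 10 and 11 for D4 stiff. The mean was 9.25 ± 0.957 peaks (SD, n = 4) in soft and 11 ± 0.816 (SD, n = 4) in stiff libraries, a difference of 1.75 that did not pass the test (exact permutation p = 0.0857). For MMP10 the counts were 3 and 6 for D2 soft, 8 and 8 for D2 stiff, 6 and 8 for D4 soft, and 8 and 7 for D4 stiff. Stiff libraries held 2 more MMP10 peaks on average (exact permutation p = 0.143). The difference was 1.75 for MMP2 (exact permutation p = 0.343), 1.75 for MMP9 (p = 0.286, exact permutation), 1 for MMP11 (p = 0.429, exact permutation), 0.75 for MMP1 (p = 0.714, exact permutation), 0.5 for MMP3 (p = 0.714, exact permutation) and 0 for MMP13 (p = 1, exact permutation). The 70 arrangements also swap libraries between the days. With the 36 arrangements within days the smallest possible p is 0.0556, so no gene could pass. The exact permutation p within days was then 0.111 for MMP14 and 0.167 for MMP10. None of the 8 had more peaks in every stiff than in every soft library, as 5.29% of all 19427 genes with a peak in the window did. The median difference was 1.38 peaks over the 8 members and 1 over all genes, of which 86.3% had a positive difference. The stiff lists were also longer. In lists of equal length the stiff minus soft difference was -1.75 for MMP1, -1.5 for MMP3, -1 for MMP10, -0.5 for MMP2 and -0.25 for MMP14. In the same lists the difference was -0.25 for MMP13, 0.5 for MMP9 and 0.75 for MMP11. None of these passed the test, and the smallest p was that of MMP3 (exact permutation p = 0.114). The share of all genes with a negative difference in these lists is not given here.

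**Figure D4:**
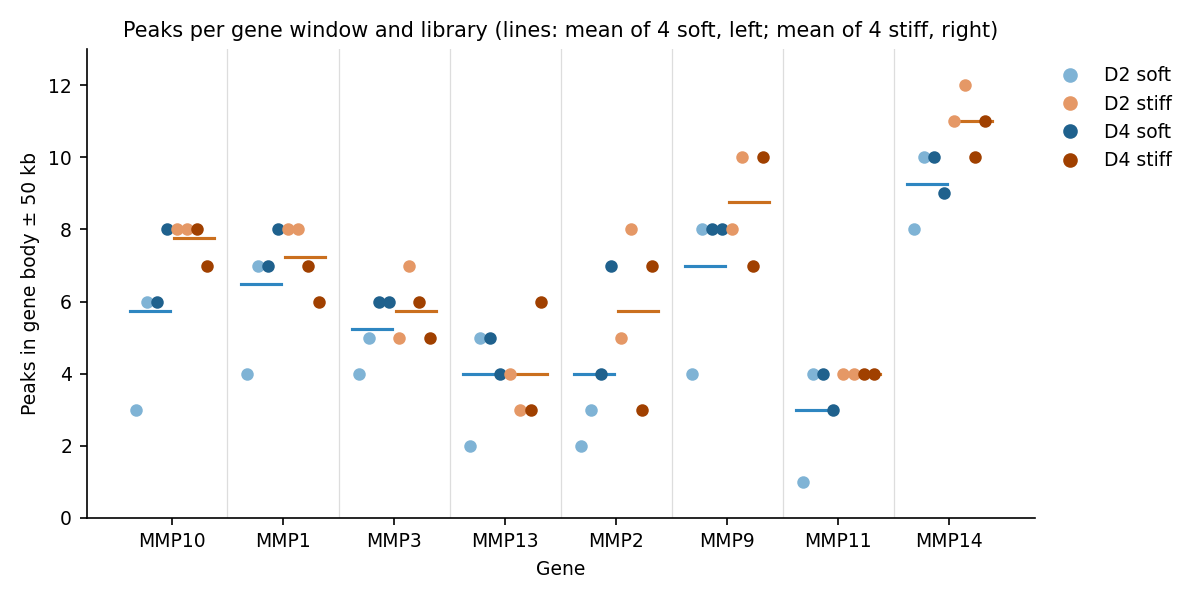
Number of peaks in the gene body with 50 kb on each side (y axis) for the 8 genes (x axis), with 1 point per library, soft libraries to the left and stiff to the right within each gene, and lines at the means of 4 libraries. The points of soft and stiff libraries overlap for every gene, and D2 soft replicate 1 is the lowest or joint lowest soft point throughout.

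For 20 member sites every library had a peak, and their signal was compared by limma on rank scores. The fold enrichment was ranked in each library over all 24246 such sites and turned into normal scores, so 1 unit is 1 SD of the sites in a library. No member site passed a Benjamini-Hochberg adjusted p under 0.05 in any of 5 contrasts. Over all sites the calls were 0.00412% for stiff against soft on D2 and 0.00825% on D4. They were 0% for the difference between the days and for D4 against D2 on either matrix. At an unadjusted p under 0.05, 2 member sites passed for D2 (7.65% of all sites), 1 for D4 (5.35%), 2 for the difference between the days (5.27%), 1 for D4 against D2 on the soft matrix (7.07%) and 0 on the stiff matrix (5.04%). The median stiff minus soft score of the member sites was -0.01 on D2 and -0.26 on D4, beside -0.02 on both days over all sites.

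The sites on D2 were those upstream of MMP13. The stiff minus soft score was 1.52 ± 0.617 at the nearer (SE, limma unadjusted p = 0.0199, adjusted p = 0.571) and 1.25 ± 0.497 at the farther (SE, limma unadjusted p = 0.0176, adjusted p = 0.568). Both depended on D2 soft replicate 1, the nearer almost wholly and the farther in part. Without it the differences were 0.11 and 0.73, and when D2 soft replicate 2 was left out instead they were 2.94 and 1.78. In the latter setting the shallow D2 soft replicate 1 was the only D2 soft library. The nearer site also had a positive stiff minus soft score on D4, 1.15 ± 0.617 (SE, limma unadjusted p = 0.0733, adjusted p = 0.939). On D4 the WTAPP1 intron site downstream of MMP10 had a stiff minus soft score of -1.14 ± 0.481 (SE, limma unadjusted p = 0.0249, adjusted p = 0.920).

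At the MMP14 promoter the stiff minus soft score was -0.63 ± 0.497 (SE) on D2 and 0.999 ± 0.497 on D4. The difference between the days was 1.63 ± 0.703 (SE, limma unadjusted p = 0.0280, adjusted p = 0.920). Ranked among the 24246 sites, both stiff libraries lay below both soft ones on D2 and above both on D4. The share of all sites with this reversal is not given here. Within the whole lists the D2 values overlapped, with fold enrichment percentiles of 60.0 and 42.0 for D2 soft and 39.0 and 42.7 for D2 stiff. The D4 minus D2 score was -1.35 ± 0.497 on soft gels (SE, limma unadjusted p = 0.0114, adjusted p = 0.620) and 0.28 ± 0.497 on stiff gels (SE, limma unadjusted p = 0.574). Without D2 soft replicate 1 the D4 minus D2 score on soft gels was -0.83 (limma unadjusted p = 0.142) and the difference between the days 1.11 (limma unadjusted p = 0.127). The MMP9 upstream site had a difference between the days of opposite sign, -1.80 ± 0.841 (SE, limma unadjusted p = 0.0412, adjusted p = 0.920), and -0.73 without D4 stiff replicate 1.

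**Figure D5:**
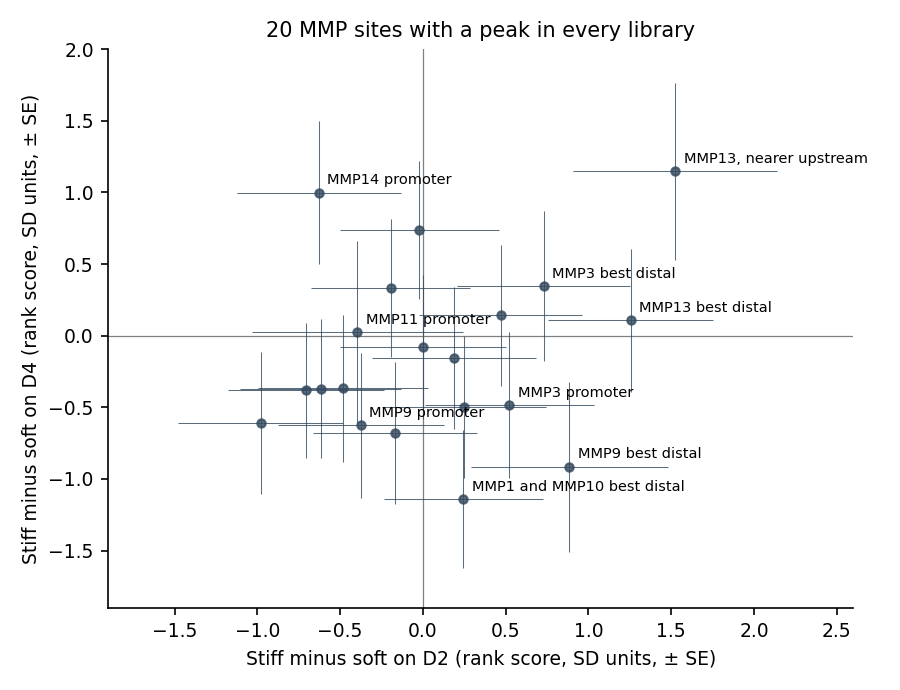
Stiff minus soft difference in rank score on D2 (x axis) and on D4 (y axis) for the 20 member sites with a peak in every library, in SD units, with bars of ± 1 SE from limma. The MMP14 promoter is the point at -0.63 and 0.999, and the nearer MMP13 upstream site the point at 1.52 and 1.15.

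Other genes of the family and its regulators were read in the same way at their promoters. Of all protein-coding genes, 47.6% had a promoter peak in every library and 26.7% had none. Of the 5 neighbours in the chromosome 11 cluster, 0 had a promoter peak in every library, MMP8 had one in 4 and MMP7 (matrilysin) in 3, and MMP12, MMP20 and MMP27 had none. Of 8 other family members, 0 had one in every library. MMP15, a membrane-type enzyme, and MMP28 had one in 7 libraries, MMP19 in 6, MMP25 in 2, MMP17 in 1, and MMP21, MMP24 and MMP26 in none. Among the inhibitors, TIMP1 and TIMP2 had a promoter peak in all 8 libraries, at median percentiles of 81.4 and 66.9. RECK, a membrane-bound inhibitor, had one in 7 and TIMP3 in 3, and TIMP4 and A2M had none. Among genes that activate or induce MMPs, PLAU and PLAT (the plasminogen activators) had one in all 8, at median percentiles of 83.0 and 86.0. BSG, an inducer of MMPs, had one in 7, FURIN in 6 and PLG, which encodes plasminogen, in none. For MMP15, MMP28, RECK and BSG the only library without a promoter peak was D2 soft replicate 1, the shallowest. For comparison, the median percentile of the promoter peaks over the libraries that had one was 78.8 for MMP10, 64.1 for MMP1, 57.1 for MMP9, 52.8 for MMP11, 48.5 for MMP14, 41.6 for MMP3 and 23.3 for MMP2.

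The promoters with the most similar rank scores over the 8 libraries were found by Euclidean distance among 9599 coding genes. For MMP3 they were DZIP1, PRKAR1A and ZNF212, at distances from 0.657 to 0.807. For MMP9 they were PRDM1, CBR3 and MKNK1, from 0.788 to 0.852. For MMP14 they were AKR7A2 and SLC66A1, which share 1 peak, at 0.708, and UNKL at 0.796. For MMP11 the nearest were farther away, NIT1 and PFDN2, which share 1 peak, at 1.39, and CDR2L at 1.44. CHCHD10, which shares the MMP11 site itself, is not among the genes named.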

How the data were processed

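The 8 lists were made by the authors from ATAC-seq reads of 8 libraries, 2 in each of 4 groups named in the labels. Per the study's methods, adaptors were trimmed with Trim Galore, reads were mapped to hg19 with Bowtie2 and MACS2 kept peaks with q up to 0.05. The submitters' processing notes give Bowtie2 version 2.4.1 and also name Picard and bedtools (2.24.0), without their roles. The handling of Tn5 offsets was not given in the sources used here. Peaks were called in each library alone. As deposited, fold enrichment is the ratio of summit pileup to local background within one library. The −log10 p and −log10 q that the authors deposited use the same background. The score deposited by the authors and the summit offset (another deposited column) served only to check the format and to place summits. Values are comparable within a list only, so they were used as ranks. Read counts per region were not used here. The number in the authors' peak names differed from the replicate number in the labels for 5 of 8 libraries. Labels were followed.

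Peaks of the 8 lists sharing 1 bp or more were merged, and sites in at least 2 libraries were kept. Genes and starts came from GENCODE release 44 on GRCh37, and promoters were peaks within 1 kb of a start. Summit pileups were solved from fold enrichment and p for 99.9964% to 99.9984% of the peaks of a list. Tests were exact permutations and limma (3.58.1) on rank scores, with Benjamini-Hochberg adjustment over 24246 sites. The limma step was tested on simulated data, as was the permutation. Python (3.11.15), numpy (2.4.6), pandas (2.3.3), scipy (1.17.1) and R (4.3.3) were used. The study's methods call its sequencing replicates biological, while the labels give only a number and name no culture, and p-values measure the spread between these libraries. The members, the gene lists and the tests were chosen with earlier results of these data known. All members were named, each with its promoter sites, its best distal site (in most libraries, best mean percentile) and its group-only sites. For promoters open in every library the 3 nearest coding genes were also named. Alternatives were other windows, thresholds, list lengths, site definitions, ranks and libraries left out.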

Additional observations from a re-analysis of the deposited data

Results flagged for a closer look

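In 24 sets of 4 libraries (the window counts and promoter percentiles of the members in the soft or in the stiff libraries), a single library stood apart from the other 3 in 2. Chance alone gives about 1 in 20 for untied values, a rate that does not apply to these 2, since the other 3 libraries were tied and a gap of any size then meets the criterion. D2 soft replicate 1 held 4 peaks in the MMP9 window where the other 3 soft libraries held 8 each. D4 stiff replicate 2 held 7 peaks in the MMP10 window where the other 3 stiff libraries held 8 each. D2 soft replicate 1 is the library with the shortest list, 29789 peaks.

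The MMP14 promoter (chr14:23305510-23307166) had stiff minus soft rank scores of opposite sign on the 2 days. Ranked among the 24246 sites, the libraries did not overlap on either day, a comparison of 2 against 2. The share of all sites with this reversal is not given here. Within the whole lists the D2 fold enrichment percentiles overlapped, at 60.0 and 42.0 for D2 soft and 39.0 and 42.7 for D2 stiff. The difference between the days was 1.63, with a limma unadjusted p of 0.0280 and an adjusted p of 0.920. It was 1.37 with ranks by −log10 p (limma unadjusted p = 0.0350) and between 1.11 and 2.15 when 1 library was left out.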

How the results depend on the processing

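Counts of group-only sites in the member windows moved with the settings. With 25 kb on each side (36 sites), D2 stiff-only and all-stiff sites fell to 0 and 0, beside 7.45% and 0.85% of all sites. D4-only and D2-only sites on the stiff matrix fell to 1 and 1, beside 5.35% and 1.41%. With 100 kb (65 sites), D2 stiff-only sites were 5, beside 7.45% of all sites. With 200 bp summit windows (57 sites), D2-only sites on the stiff matrix were 5 (2.14% of all sites). At q up to 0.01 D4-only sites on the soft matrix were 1 of 50, beside 5.72% of all sites. In lists of equal length (29789 peaks, 28 sites), D2 stiff-only sites were 1 (beside 4.06% of all sites), D2 soft-only 2 (3.24%) and D4-only on soft 0 (3.16%). D4-only on stiff sites were then 1 (2.75%) and all-stiff sites 0 (0.279%). With a peak in at least 1 replicate enough, D2 stiff-only sites were 6 of 50 (beside 20.1% of all sites), D2 soft-only 1 (5.45%), D4 stiff-only 5 (14.0%), D4 soft-only 3 (4.43%), D4-only on soft 6 (18.4%), D2-only on soft 1 (6.10%), D4-only on stiff 5 (11.7%), all-stiff 5 (9.42%) and all-soft 1 (1.52%). Leaving out 1 library gave 3 to 17 D2 stiff-only sites (17 without D2 soft replicate 2, beside 29.0% of all sites, and 6 without D2 stiff replicate 1, beside 15.1%), 0 to 1 D2 soft-only, 3 to 5 D4 stiff-only (5 without D4 soft replicate 2, beside 10.8%, and without D4 stiff replicate 1, beside 10.9%), 1 to 3 D4 soft-only (3 without D4 soft replicate 1, beside 2.47%, and without D4 stiff replicate 2, beside 3.57%), 2 to 12 D4-only on soft (12 without D2 soft replicate 2, beside 25.4%, and 5 without D4 soft replicate 1, beside 10.4%), 0 to 1 D2-only on soft, 2 to 5 D4-only on stiff (5 without D4 stiff replicate 1, beside 9.09%) and 3 to 5 D2-only on stiff (5 without D4 stiff replicate 2, beside 4.32%). D2 soft-only and D2-only on soft sites were 1 each without D2 soft replicate 1, beside 4.72% and 5.43% of all sites. Promoters open in every library fell from 4 to 0 in lists of equal length, and gene and library pairs from 46 to 25. In those lists the stiff minus soft window count was -1.75 for MMP1, -1.5 for MMP3, -1 for MMP10, -0.5 for MMP2, -0.25 for MMP14, -0.25 for MMP13, 0.5 for MMP9 and 0.75 for MMP11. Leaving out 1 library gave -0.0833 to 1.25 for MMP1 (lowest without D2 soft replicate 1), and members without overlap of stiff and soft were 0 to 1. That member was MMP10 without D4 soft replicate 2 (2.75, exact permutation p = 0.0286), beside 7.24% of all genes. Without D4 stiff replicate 1 it was MMP14 (2.08, exact permutation p = 0.0286), beside 7.39% of all genes. This p is the smallest that the test can give with 1 library left out. None of the other stiff minus soft counts passed the test, but several moved: with 25 kb to 0 for MMP1, 0.25 for MMP3 and 1 for each of MMP10, MMP2 and MMP9, with 100 kb to 2.5 for MMP1, 1.75 for MMP3, 1 for MMP13 and 2.5 for MMP11, and without D2 soft replicate 1 to 0.0833 for MMP3, 1.08 for MMP10, -0.667 for MMP13, 1.08 for MMP2, 0.75 for MMP9 and 0.333 for MMP11. Member sites called by limma stayed at 0 in 56 of 57 contrast and setting pairs. The exception was stiff against soft on D2 without D2 soft replicate 2. There the shallow D2 soft replicate 1 was the only D2 soft library, and the share of all sites called is not given here. Other than through list length and the library left out, the cause was not tested.

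With the replicate number as a replicate block in limma, 0 member sites were called in each contrast, and the count at an unadjusted p under 0.05 moved from 1 to 2 for D4 against D2 on the soft matrix. The block changed no other call or count. Deviations of same-numbered libraries correlated between -0.0415 and 0.0837, and the libraries were not treated as paired. Such correlations, at sites with a peak in every library, cannot show whether libraries shared a culture or a batch.

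The smallest called pileup of 3 to 5 fragments limits what a missing peak shows, which is that it was not detectable in that list.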
